A study of Mus musculus with 10 samples.

Results

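The IL-1 family was followed across 10 mouse livers as 10 genes chosen by symbol, the IL-1, IL-18 and IL-33 cytokines with their receptors, antagonist and decoys, out of 55291 genes in the table of gene counts. They were the ligands Il1a, Il1b, Il18 and Il33, the receptor antagonist Il1rn, the soluble inhibitor Il18bp, the receptors Il1r1 and Il1rl1, their shared accessory chain Il1rap, and the decoy receptor Il1r2. The study profiled whole-liver mRNA from female mice aged 16 to 20 weeks that carried a Lox-Stop-Lox Cas9 allele. Every mouse, controls included, received an AAV8 vector that drove Cre from Tbg, a promoter active in hepatocytes, and carried a guide RNA, either a non-targeting control (NTC) or a guide against Bap1 (sgBap1), the gene of a deubiquitinase that acts on chromatin. On day 10 the mice were injected with carbon tetrachloride (CCl4), a toxin that hepatocytes convert to a reactive radical, diluted 1:9 in olive oil, or with olive oil alone (Veh), and livers were taken 48 h later. There were 2 livers of each genotype with vehicle (NTC-Veh, sgBap1-Veh) and 3 of each with CCl4 (NTC-CCl4, sgBap1-CCl4). Cre was driven in hepatocytes and editing there was not complete, so each sgBap1 liver kept unedited hepatocytes and untargeted cells of other types.

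IL-1α and IL-1β bind the receptor IL1R1, which then recruits IL1RAP and signals through MyD88 to NF-kappaB. IL-1 receptor antagonist (Il1rn) occupies IL1R1 without signalling, and IL1R2 binds IL-1 but has no signalling domain. IL-18, held in check by the soluble IL18BP, signals through its own receptor pair, and IL-33, a nuclear protein set free from damaged cells, signals through ST2 (Il1rl1) with IL1RAP. In the liver these cytokines are known for macrophage activation and for the response to injured hepatocytes.

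Promoter windows from RefSeq (GRCm38.p6) were read for 10 of 10 members, as 15 windows of the 250 bases before an annotated start, since 4 members had more than 1 start. An AP-1 motif (TGANTCA, read on both strands) stood in 2 of the 15 windows and a match to the kappaB consensus in 1, against 6.75% and 7.25% of 32851 windows of the same length. The windows with a match are shown because Il1a, Il1rn and Il1r1 are the IL-1 ligand, antagonist and receptor whose levels are given next, and the Il33 window is shown as that of a member with a large difference and no match. Capitals mark the match. The counts are per gene and cannot say which start was used.
Il1a, chr2:129309973-129310222, minus strand, intergenic, AP-1 motif 12 bases before the start: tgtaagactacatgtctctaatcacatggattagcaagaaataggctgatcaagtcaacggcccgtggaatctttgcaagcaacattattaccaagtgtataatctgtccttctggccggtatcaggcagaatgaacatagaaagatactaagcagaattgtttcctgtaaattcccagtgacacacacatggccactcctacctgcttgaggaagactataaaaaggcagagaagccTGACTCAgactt
Il1rn, chr2:24336610-24336859, plus strand, its last 7 bases exonic, AP-1 motif 141 bases before the start: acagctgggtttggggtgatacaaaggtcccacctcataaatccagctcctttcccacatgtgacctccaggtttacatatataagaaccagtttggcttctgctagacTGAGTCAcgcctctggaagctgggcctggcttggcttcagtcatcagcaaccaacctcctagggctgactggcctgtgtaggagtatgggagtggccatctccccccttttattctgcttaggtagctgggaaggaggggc
Il1r1, chr1:40266336-40266585, plus strand, inside an intron of Il1r1, kappaB match 232 bases before the start: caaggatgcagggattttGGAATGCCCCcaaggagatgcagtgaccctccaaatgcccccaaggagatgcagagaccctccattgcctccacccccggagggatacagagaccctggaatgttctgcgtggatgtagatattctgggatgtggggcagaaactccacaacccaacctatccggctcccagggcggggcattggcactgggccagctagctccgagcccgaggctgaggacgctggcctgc
Il33, chr19:29924863-29925112, plus strand, intergenic, no match to either motif: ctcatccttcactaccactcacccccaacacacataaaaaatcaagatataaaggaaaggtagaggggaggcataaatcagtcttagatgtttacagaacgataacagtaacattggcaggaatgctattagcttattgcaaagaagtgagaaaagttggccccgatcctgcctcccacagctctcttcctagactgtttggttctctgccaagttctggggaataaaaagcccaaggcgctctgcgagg

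Depth ran from 33047869 to 52199886 counts per liver, and 3 counts, used as the limit of detection, corresponded to 0.0511 to 0.112 CPM (the count as a share of the library, scaled by TMM). All 10 members passed the filter on low counts, Il1r2 and Il1rl1 only through CCl4 livers. They were tested among 17015 genes, with p-values adjusted over all of them by the method of Benjamini and Hochberg. A gene was called at an adjusted p under 0.05. With vehicle Bap1 stood at 34.8 CPM in both NTC livers and at 17.5 and 19.5 in sgBap1 livers, and with CCl4 at 29.5 to 31.5 and 17.0 to 21.8. It fell by 0.91 on the log2 scale (SE 0.12, adjusted p = 0.0172) with vehicle and by 0.65 (SE 0.09, adjusted p = 0.0307) with CCl4. Hepatocyte markers were abundant in every liver (7 genes summing to 67100 to 162000 CPM). Adipocyte markers set apart 1 liver, sgBap1-CCl4 replicate 2, whose 7 markers summed to 545 CPM against 22.0 to 30.5 in the other CCl4 livers. It held 36.4 CPM of Adipoq, and the other 9 livers had at most 2 counts of that gene. Results that rest on this liver are given with and without it.

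In NTC-Veh livers the highest member per length was Il1rap, at 13.7 CPM per kilobase of exon (range 12.8 to 14.6). Il18 followed at 11.8, Il1r1 at 7.80, Il18bp at 5.19 and Il1a at 2.20 CPM per kilobase. Il1b (1.14), Il1rn (0.910) and Il33 (0.847) came next, and in this order the ranges of Il1b and Il1rn, and of Il1rn and Il33, overlapped. Il1r2 (0.0428) and Il1rl1 (0.00599) were at the limit of detection and overlapped as well. In whole liver, fewer cells of a type and less RNA per cell cannot be told apart.

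**Figure D1:**
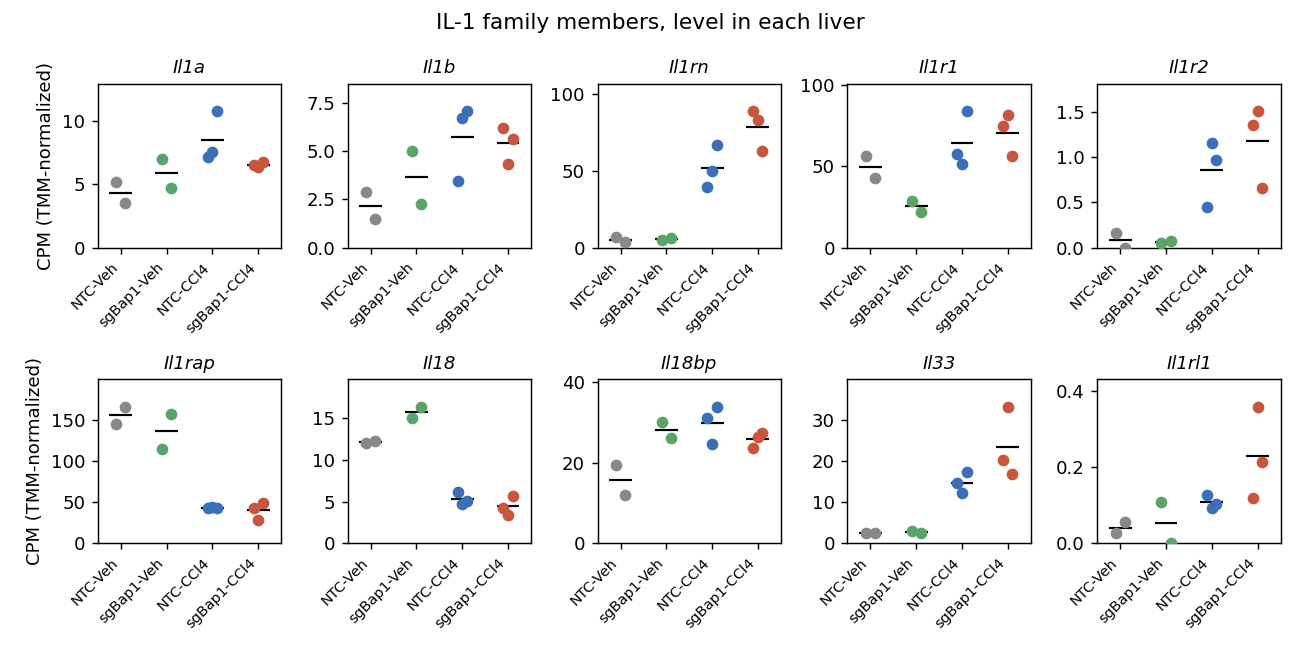
Level of each of the 10 members in each of the 10 livers, as TMM-scaled CPM on a linear axis that starts at 0; points are livers, coloured by group, and bars are group means. Il1rn and Il33 were higher and Il1rap and Il18 lower in all 6 CCl4 livers than in all 4 vehicle livers, while Il1r1 was lowest and Il18bp about as high as with CCl4 in the sgBap1-Veh livers.

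With CCl4 the antagonist Il1rn, the decoy receptor Il1r2 and the alarmin Il33 rose, and the accessory chain Il1rap and Il18 fell, in both genotypes. In NTC livers 8 of 10 members were called, 6 higher and 2 lower, against 53.8% of all genes tested (27.5% higher and 26.3% lower). In sgBap1 livers 6 were called, 4 higher and 2 lower, a share close to the 56.7% of all genes (29.0% higher and 27.7% lower). The 8 and the 6 both include Il1r2, which passed the filter on low counts only through CCl4 livers. The median log2 fold change over the members was 1.15 in NTC and 1.01 in sgBap1 livers, beside 0.03 and 0.04 over all genes tested. Values of NTC-CCl4 and NTC-Veh livers did not overlap for 9 members and those of sgBap1 livers for 7, against 71.7% and 72.2% of all genes, so both sgBap1 counts were close to the shares over all genes. The 9, the 7 and both medians also include Il1r2 and Il1rl1, which passed that filter only through CCl4 livers.

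**Figure D2:**
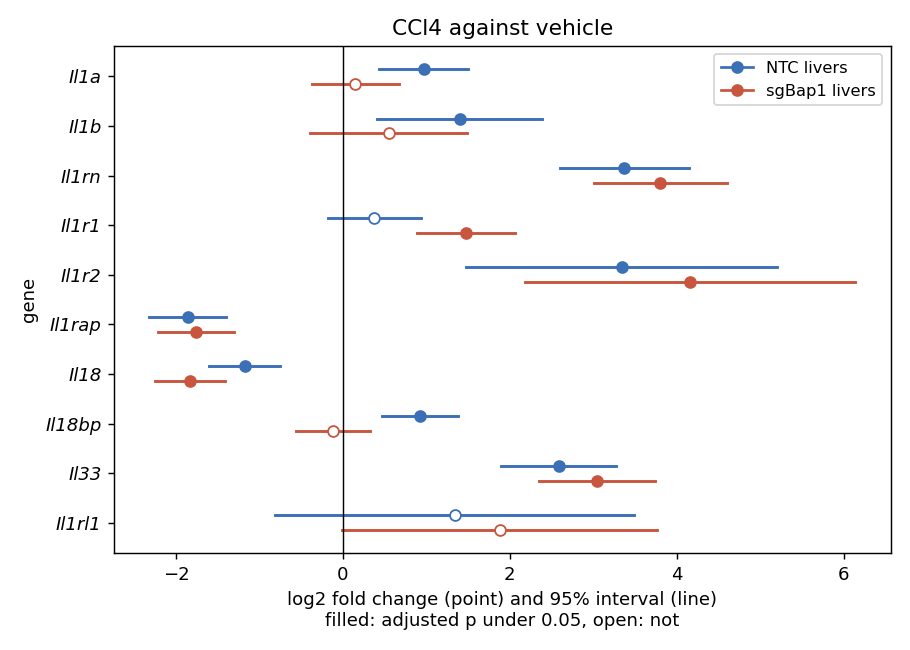
Log2 fold change of CCl4 over vehicle for each member, with its 95% interval, in NTC livers (blue) and sgBap1 livers (red); filled points passed an adjusted p under 0.05. Il1rn, Il1r2 and Il33 lie to the right of 0 and Il1rap and Il18 to the left in both genotypes, while Il1a, Il1b and Il18bp passed in NTC livers and Il1r1 in sgBap1 livers.

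Il1a (chr2:129299610-129309972, minus strand, GRCm38) encodes IL-1α, an alarmin that many cells store. It was measured at 5.20 and 3.49 CPM in the NTC-Veh livers, 7.02 and 4.75 in sgBap1-Veh, 7.18, 7.55 and 10.8 in NTC-CCl4, and 6.54, 6.40 and 6.74 in sgBap1-CCl4. The NTC-CCl4 livers lay above both NTC-Veh livers, while the sgBap1-CCl4 livers lay between the 2 sgBap1-Veh livers. Il1a rose with CCl4 in NTC livers (1.95-fold, log2 fold change 0.97, SE 0.24, adjusted p = 0.00657). In sgBap1 livers the log2 fold change was 0.15 (SE 0.24, 95% interval -0.37 to 0.67, adjusted p = 0.614). The difference between the responses of the genotypes was -0.82 (95% interval -1.56 to -0.08) and did not pass adjustment (adjusted p = 0.422). Without NTC-Veh replicate 2 the NTC change was no longer called (log2 fold change 0.71, adjusted p = 0.0748). Gm14023, on the opposite strand with 222 shared exon bases, was at 1.01 CPM or less in every liver.

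Il1b (chr2:129364570-129371139, minus strand) encodes IL-1β, the secreted form made mainly by activated macrophages and matured by caspase-1. It stood at 2.89 and 1.47 CPM in the NTC-Veh livers, 5.03 and 2.28 in sgBap1-Veh, 3.43, 6.71 and 7.08 in NTC-CCl4, and 6.21, 4.35 and 5.65 in sgBap1-CCl4. The spread within groups was wide, and sgBap1-Veh replicate 1 alone lay within the range of the CCl4 livers. Il1b rose with CCl4 in NTC livers (2.63-fold, log2 fold change 1.4, SE 0.44, adjusted p = 0.0229). In sgBap1 livers the value was 0.55 (SE 0.42, 95% interval -0.40 to 1.49, adjusted p = 0.293). The difference between the responses of the genotypes was -0.85 (95% interval -2.19 to 0.49) and did not pass adjustment (adjusted p = 0.684). The NTC call was lost without NTC-Veh replicate 2 (0.99, adjusted p = 0.167), without NTC-CCl4 replicate 2 (1.27, adjusted p = 0.0582) or without replicate 3 of that group (1.22, adjusted p = 0.0618).

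Kupffer cell markers were read beside these 2 ligands. The 6 markers (Clec4f, Vsig4, Timd4, Cd5l, Marco, Adgre1) summed to 161 to 268 CPM with vehicle and 455 to 885 with CCl4 in NTC livers, and to 340 to 515 and 437 to 638 CPM in sgBap1 livers, with none of the 6 at or under 3 counts. NTC-CCl4 replicate 3 was highest both in that sum and in Il1a, and NTC-Veh replicate 2 lowest in both. Within the CCl4 groups Il1b did not keep the order of the sum. In sgBap1-CCl4 livers the sums were 437, 638 and 515 CPM and Il1b was 6.21, 4.35 and 5.65. In NTC-CCl4 livers the sums were 590, 455 and 885 CPM and Il1b was 3.43, 6.71 and 7.08. With CCl4 3 of the 6 markers rose in NTC livers, and 1 rose and 2 fell in sgBap1 livers. Monocyte and recruited macrophage markers (7 genes) summed to 52.7 and 67.4 CPM in the NTC-Veh livers, 101 and 122 in the sgBap1-Veh livers and 505 to 744 in the CCl4 livers. All 7 rose in both genotypes, beside 27.5% (NTC) and 29.0% (sgBap1) of all genes tested. The part of these cells in the levels of Il1a and Il1b was not tested.

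Il1rn (chr2:24336853-24351494, plus strand) had the largest change among the members with more than 100 counts per liver. It was measured at 6.64 and 3.44 CPM in the NTC-Veh livers, 5.03 and 6.29 in sgBap1-Veh, 39.7, 50.1 and 67.1 in NTC-CCl4, and 89.2, 83.4 and 63.4 in sgBap1-CCl4. Every CCl4 liver lay far above every vehicle liver. Il1rn rose 10.4-fold in NTC livers (log2 fold change 3.37, SE 0.34, adjusted p = 5.67e-05) and 14.0-fold in sgBap1 livers (3.80, SE 0.35, adjusted p = 3.03e-05). Between genotypes with CCl4, the level was 52.3 ± 13.9 CPM (SD, n = 3) in NTC and 78.7 ± 13.6 (SD, n = 3) in sgBap1 livers, and the groups overlapped. That difference, 0.59 on the log2 scale (95% interval 0.02 to 1.16), did not pass adjustment (adjusted p = 0.358).

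Measured within each liver, the antagonist gained on the agonists. The log2 ratio of Il1rn counts to the summed counts of Il1a and Il1b, which does not depend on library scaling, was -0.28 and -0.53 in NTC-Veh, -1.26 and -0.16 in sgBap1-Veh, 1.90, 1.81 and 1.91 in NTC-CCl4, and 2.81, 2.95 and 2.35 in sgBap1-CCl4. All 4 vehicle livers were below 0, with fewer Il1rn than agonist counts, and all 6 CCl4 livers were above it. Counts were not scaled for length, and Il1rn has 5535 exon bases against 1974 (Il1a) and 1907 (Il1b). The value 0 thus marks equal counts and not equal levels, and the ratio compares livers, not genes. The ratio was 4.85-fold higher with CCl4 in NTC livers and 10.7-fold higher in sgBap1 livers. Over both genotypes the log2 difference was 2.85 (two-sided exact permutation of treatment within genotype, p = 0.01, the smallest that the 100 arrangements allow).

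**Figure D3:**
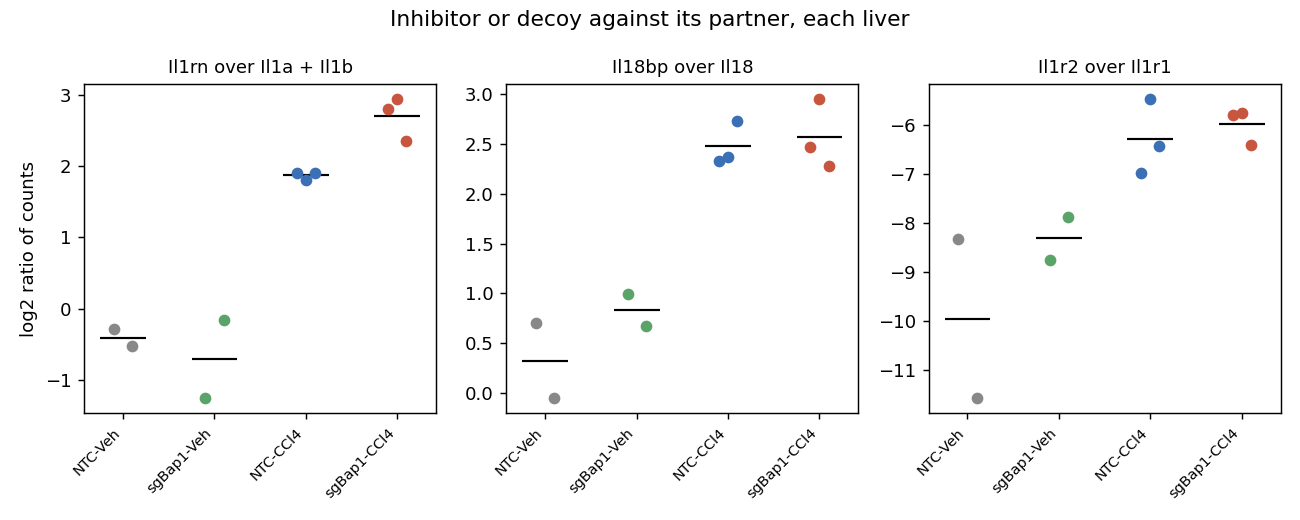
Log2 ratio of counts within each liver for Il1rn over Il1a plus Il1b, Il18bp over Il18 and Il1r2 over Il1r1 (0.5 added to each count); points are livers and bars group means. In each panel all 6 CCl4 livers lie above all 4 vehicle livers, and the NTC-Veh point near -11.6 in the third panel is a liver with 0 counts of Il1r2.

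Il1r1 (chr1:40225080-40317257, plus strand), the signalling receptor for both IL-1 forms, was lowest in the sgBap1-Veh livers. It stood at 56.5 and 42.8 CPM in the NTC-Veh livers, 28.9 and 21.8 in sgBap1-Veh, 57.3, 51.5 and 84.0 in NTC-CCl4, and 74.5, 81.3 and 56.1 in sgBap1-CCl4. The 2 sgBap1-Veh livers were the lowest of all 10, and the other 3 groups overlapped. With CCl4 Il1r1 rose 2.78-fold in sgBap1 livers (log2 fold change 1.47, SE 0.26, adjusted p = 0.00111), and in NTC livers the log2 fold change was 0.37 (SE 0.25, 95% interval -0.18 to 0.93, adjusted p = 0.232). The sgBap1-Veh level was 25.4 ± 5.01 CPM (SD, n = 2) against 49.6 ± 9.73 (SD, n = 2) in NTC-Veh, a log2 fold change of -0.97 (95% interval -1.58 to -0.35) that did not pass adjustment (adjusted p = 0.176). The interaction was 1.10 (95% interval 0.32 to 1.89) and did not pass either (adjusted p = 0.288). DESeq2's Wald test on the same counts called both, with adjusted p = 0.0145 and 0.0478, and limma-voom called neither.

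Il1rap (chr16:26581704-26730117, plus strand), the accessory chain that IL1R1 and ST2 share, went the other way. In the vehicle livers Il1rap had the highest CPM of the members. Per kilobase of exon, though, Il18 stood above it in sgBap1-Veh livers (15.3 against 12.0 CPM). It was measured at 145 and 166 CPM in the NTC-Veh livers, 115 and 157 in sgBap1-Veh, 42.4, 43.7 and 42.7 in NTC-CCl4, and 43.5, 28.1 and 48.7 in sgBap1-CCl4. The CCl4 and vehicle livers were widely apart, and the 3 NTC-CCl4 livers had an SD of 0.681 CPM. Il1rap fell 3.63-fold in NTC livers (log2 fold change -1.86, SE 0.21, adjusted p = 5.34e-05) and 3.39-fold in sgBap1 livers (-1.76, SE 0.21, adjusted p = 7.00e-05). The genotypes differed by -0.20 with vehicle (95% interval -0.70 to 0.31) and by -0.10 with CCl4 (95% interval -0.52 to 0.32). On the opposite strand Gm20319 shares 552 exon bases with Il1rap and went from 61.9 to 14.4 CPM in NTC livers. The library kit keeps strand, but the strand setting of the counting is not given in the sources used here.

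Il1r2 (chr1:40074079-40125231, plus strand), the decoy receptor, was close to undetected without CCl4. It had 6 and 0 counts in NTC-Veh, 2 and 2 in sgBap1-Veh, 21, 62 and 37 in NTC-CCl4, and 79, 88 and 31 in sgBap1-CCl4. Each CCl4 liver had at least 21 counts, and 3 of the 4 vehicle livers were at or under 3. Il1r2 rose with CCl4 in both genotypes (log2 fold change 3.34, SE 0.84, adjusted p = 0.00679 in NTC; 4.16, SE 0.89, adjusted p = 0.00266 in sgBap1). The ratio of pooled counts was 10.5 in NTC livers (exact 95% interval 4.69 to 29.2) and 19.3 in sgBap1 livers (7.40 to 71.4), intervals that cover counting error only. Without NTC-Veh replicate 2, the liver with 0 counts, the NTC log2 fold change was 2.38 (adjusted p = 0.0352), and without replicate 1 the comparison was against that liver alone and gives no fold. Per liver, the log2 ratio of Il1r2 to Il1r1 was 3.00 higher with CCl4 over both genotypes (exact permutation, p = 0.01, the smallest allowed), with 0.5 added to each count. It was 2.14 with 2 added. Il1r2 passed the filter on low counts only through CCl4 livers. Neither this p nor the adjusted p-values above are therefore independent support for its rise.

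Neutrophil markers were higher where Il1r2 was. The 8 markers summed to 5.93 to 12.2 CPM in the vehicle livers and 29.5 to 42.4 in the CCl4 livers. The 6 tested rose in both genotypes, beside 27.5% and 29.0% of all genes tested in NTC and sgBap1 livers. Ly6g and Camp were at or under 3 counts in every vehicle liver. With CCl4, Ly6g stayed at or under 3 counts in every NTC liver and Camp in every sgBap1 liver. The genes most like Il1r2 over the 10 livers, which fall into 2 treatment clusters, were the neutrophil marker S100a9 and the trafficking GTPase gene Arf1 (Pearson r of log2 CPM 0.986 each) and Pprc1 (0.984), and the latter pair are not neutrophil markers. The part of neutrophils in the level of Il1r2 was not tested.

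Il18 (chr9:50554827-50581840, plus strand), a caspase-1 substrate known for driving interferon-γ, fell with CCl4 in both genotypes. It was measured at 12.0 and 12.3 CPM in the NTC-Veh livers, 15.1 and 16.4 in sgBap1-Veh, 6.18, 4.77 and 5.10 in NTC-CCl4, and 4.26, 3.41 and 5.63 in sgBap1-CCl4. The 2 sgBap1-Veh livers were the highest of all, and no CCl4 liver reached a vehicle liver. Il18 fell 2.27-fold in NTC livers (log2 fold change -1.18, SE 0.19, adjusted p = 0.000444) and 3.56-fold in sgBap1 livers (-1.83, SE 0.19, adjusted p = 2.39e-05). The fall was larger in sgBap1 livers by 0.65 on the log2 scale (interaction -0.65, 95% interval -1.25 to -0.04), which did not pass adjustment (adjusted p = 0.434). With vehicle the genotype difference was 0.37 (95% interval -0.09 to 0.83, adjusted p = 0.523). Bco2, which overlaps Il18 on the opposite strand with 0 shared exon bases, went from 28.3 to 6.70 CPM with CCl4 in NTC livers.

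Hepatocyte markers fell beside Il1rap and Il18. The 7 markers summed to 114000 to 162000 CPM in vehicle and 67100 to 86300 CPM in CCl4 livers. Of the 7, 6 were lower in NTC livers (85.7%) and 3 in sgBap1 livers (42.9%), beside 26.3% and 27.7% of all genes tested. Over the 10 livers the genes most like Il1rap were Pon1, Faah and 1300017J02Rik (r = 0.996 each), and Tcea3 (0.996), Sc5d (0.994) and Mrpl18 (0.993) were most like Il18. Pon1, a serum paraoxonase, and Sc5d, a cholesterol synthesis enzyme, are known for their expression in hepatocytes. Whether hepatocyte RNA accounted for the lower levels was not tested.

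Il18bp (chr7:102014885-102018690, minus strand) encodes the secreted inhibitor that binds free IL-18. It stood at 19.5 and 11.9 CPM in the NTC-Veh livers, 29.9 and 26.0 in sgBap1-Veh, 31.1, 24.6 and 33.8 in NTC-CCl4, and 23.6, 26.3 and 27.4 in sgBap1-CCl4. The NTC-Veh livers were below the other 8, which overlapped with one another. Il18bp rose with CCl4 in NTC livers (1.90-fold, log2 fold change 0.92, SE 0.20, adjusted p = 0.00352), and in sgBap1 livers the log2 fold change was -0.12 (SE 0.20, 95% interval -0.56 to 0.32, adjusted p = 0.619). With vehicle it was 28.0 ± 2.74 CPM (SD, n = 2) in sgBap1 and 15.7 ± 5.40 (SD, n = 2) in NTC livers, a log2 fold change of 0.83 (95% interval 0.34 to 1.32) that did not pass adjustment (adjusted p = 0.138). The interaction, -1.05 (95% interval -1.67 to -0.42), did not pass either (adjusted p = 0.188). DESeq2's Wald test called both, with adjusted p = 0.0154 and 0.0241, and limma-voom called neither. Numa1, on the opposite strand with 80 shared exon bases, lay between 53.9 and 70.9 CPM in all livers.

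Summed T and NK cell markers were, like Il18bp, lowest in the NTC-Veh livers. The 7 markers summed to 2.27 to 4.60 CPM with vehicle and 5.35 to 8.98 with CCl4 in NTC livers, and to 7.26 to 7.45 and 4.78 to 7.65 CPM in sgBap1 livers. With CCl4 2 of the 7 were called in NTC livers (28.6%), both higher, and 0 in sgBap1 livers, beside 53.8% and 56.7% of all genes tested. None of these 7 markers was at or under 3 counts in every liver of a group. Rasgrp1 (r = 0.976) and Cfp (0.952) were among the genes most like Il18bp, and Cd5l, a Kupffer cell marker, led the list for Il1a (0.921). These correlations describe 10 livers of 4 groups and carry no test, and the part of the cell types was not tested.

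Within each liver the inhibitor gained on IL-18 as well. The log2 ratio of Il18bp to Il18 counts was 0.70 and -0.05 in NTC-Veh, 0.99 and 0.67 in sgBap1-Veh, 2.33, 2.37 and 2.73 in NTC-CCl4, and 2.47, 2.95 and 2.28 in sgBap1-CCl4. The 6 CCl4 livers lay above the 4 vehicle livers without overlap. In NTC livers both genes changed, and in sgBap1 livers Il18 fell while the inhibitor's log2 fold change was -0.12. The difference over both genotypes was 1.94 (exact permutation, p = 0.01, the smallest allowed), a ratio 4.43-fold higher in NTC and 3.33-fold higher in sgBap1 livers.

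Il33 (chr19:29925114-29960718, plus strand), the alarmin of the ST2 pathway, rose with CCl4 in both genotypes. It was measured at 2.42 and 2.47 CPM in the NTC-Veh livers, 3.09 and 2.58 in sgBap1-Veh, 14.6, 12.3 and 17.3 in NTC-CCl4, and 20.4, 33.3 and 17.0 in sgBap1-CCl4. The vehicle livers were close together and all 6 CCl4 livers lay well above them. Il33 rose 6.01-fold in NTC livers (log2 fold change 2.59, SE 0.31, adjusted p = 8.61e-05) and 8.25-fold in sgBap1 livers (3.04, SE 0.31, adjusted p = 3.15e-05). With CCl4 the genotypes differed by 0.68 (95% interval 0.17 to 1.19), which did not pass adjustment (adjusted p = 0.250). The highest liver was sgBap1-CCl4 replicate 2, the liver with adipocyte transcripts, and without it the genotype difference was 0.35 (adjusted p = 0.492) and the rise in sgBap1 livers 2.71 (adjusted p = 2.89e-06).

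Stellate cell markers (7 genes) summed to 141 to 187 CPM in the vehicle livers and 209 to 244 in the CCl4 livers, with 4 of 7 higher and 1 lower in NTC livers and 3 higher in sgBap1 livers. Sinusoidal endothelial cell markers (7 genes) summed to 191 to 276 and 230 to 274 CPM. Of these, 4 of 7 were higher in NTC livers, and 2 were higher and 2 lower in sgBap1 livers. The shares called were 71.4% (NTC) and 42.9% (sgBap1) of stellate and 57.1% of endothelial markers in each genotype. Over all genes tested they were 53.8% and 56.7%. Mesothelial markers (5 genes) summed to 1.17 to 17.9 and 4.29 to 18.6 CPM, with none of the 5 called. No marker of these 3 lists was at or under 3 counts throughout a group. These cells are known sources of IL-33, and their part in its level was not tested. Rhbdf1 (r = 0.995), Cdr2 (0.995) and Kctd10 (0.994) were the genes most like Il33.

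Il1rl1 (chr1:40429570-40465415, plus strand), the ST2 receptor carried mainly by mast cells, type 2 innate lymphoid cells and regulatory T cells, was barely sampled. It had 1 and 2 counts in NTC-Veh, 4 and 0 in sgBap1-Veh, 6, 5 and 4 in NTC-CCl4, and 7, 21 and 10 in sgBap1-CCl4. No liver but sgBap1-CCl4 replicate 2 had more than 10. The log2 fold change with CCl4 was 1.34 in NTC livers (SE 0.97, adjusted p = 0.271) and 1.88 in sgBap1 livers (SE 0.85, adjusted p = 0.0825). The ratio of pooled counts was 2.63 in NTC livers (exact 95% interval 0.743 to 14.2) and 3.70 in sgBap1 livers (1.33 to 14.3). Without sgBap1-CCl4 replicate 2, and likewise without replicate 3 of that group, the gene did not reach the filter on low counts. Of 6 mast cell and ILC2 markers, 5 were at or under 3 counts in every vehicle liver. In sgBap1-CCl4 replicate 2, the liver with the most Il1rl1 counts, all 6 were over 3 counts, against 1 or 2 of the 6 in each other liver. It had 20 counts of Cpa3, a mast cell carboxypeptidase, 9 of the chymase gene Mcpt4 and 11 of the tryptase gene Tpsb2. Its counts of Ms4a2 (5), Klrg1 (4) and Kit (582) did not set it apart. NTC-CCl4 replicate 2 had 10 of Ms4a2, sgBap1-CCl4 replicate 3 had 5 of Klrg1 and sgBap1-CCl4 replicate 1 had 521 of Kit. The part of these cells in the level of Il1rl1 was not tested. Dendritic cell markers (5 genes) summed to 5.39 to 8.83 CPM in vehicle and 7.01 to 8.61 in CCl4 livers, and cholangiocyte markers (5 genes) to 4.49 to 7.90 and 12.1 to 17.9 CPM.

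Over the 10 livers, which fall into 2 treatment clusters, the members also resembled one another in log2 CPM. Il1rn and Il33 had a Pearson r of 0.98, Il1rap and Il18 of 0.96, and Il33 and Il1rap of -0.99. Il1a and Il1b (0.89) and Il1a and Il18bp (0.85) formed another pair of like patterns. Among other genes, Hilpda (0.994), Ube2v1 (0.994) and Gla (0.993) were most like Il1rn, Flt4 (0.907), Cd83 (0.901) and Pot1b (0.900) most like Il1b, and Wfdc17 (0.921) and Cd300ld (0.918) came with Cd5l for Il1a. Dtx2 (0.962), Slc4a7 (0.956) and Mapk8ip3 (0.955) were most like Il1r1, and Pear1 (0.943), Postn (0.939) and Htra3 (0.931) most like Il1rl1. These values describe the livers and carry no test.

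Whether the Bap1 guide changed the family, with or without injury, was asked of each member, and none was called in edgeR. With vehicle 0 of 10 members passed, against 0.523% of all genes tested, and 2 had an unadjusted p under 0.05 (12.6% of all genes). The 2 were Il1r1 and Il18bp, which DESeq2 called and limma-voom did not. Values of the 2 groups did not overlap for 4 members, higher for Il18, Il18bp and Il33 and lower for Il1r1, against 40.9% of all genes. With CCl4 0 of 10 passed, against 0.253% of all genes, and 2, Il1rn and Il33, had an unadjusted p under 0.05 (13.4% of all genes), while DESeq2 and limma-voom called 0. Il1a alone did not overlap between genotypes with CCl4, lower in sgBap1 livers by 0.37 on the log2 scale (adjusted p = 0.464), against 20.3% of all genes. For the interaction 0 members passed in edgeR, 2 in DESeq2 (Il1r1 and Il18bp) and 0 in limma-voom. At an unadjusted p under 0.05 there were 4, Il1a, Il1r1, Il18 and Il18bp, beside 10.6% of all genes.

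**Figure D4:**
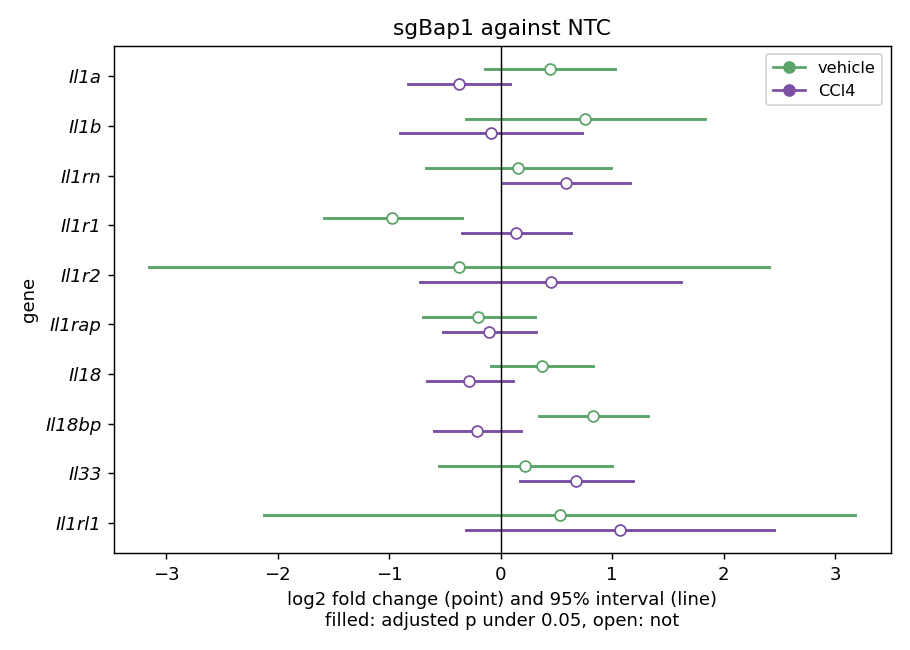
Log2 fold change of sgBap1 over NTC for each member, with its 95% interval, with vehicle (green) and with CCl4 (purple); open points did not pass an adjusted p under 0.05, and none passed. With vehicle the interval of Il1r1 lies below 0 and that of Il18bp above it, and with CCl4 those of Il1rn and Il33 lie above 0.

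Among the other IL-1 family genes in the table, Il1f9 (IL-36γ) was the one ligand of 5 with enough counts to test. It rose with CCl4 in NTC livers (log2 fold change 2.57, adjusted p = 0.00822) and in sgBap1 livers (4.71, adjusted p = 0.000667), from at most 8 counts in a vehicle liver. Of 6 other receptors 4 were tested, and 2 rose in both genotypes. These were Il1rl2, the IL-36 receptor (2.22 in NTC and 1.64 in sgBap1), and Il18rap, the accessory chain of the IL-18 receptor (2.13 and 1.02). Sigirr, an inhibitory receptor of the family, fell in sgBap1 livers (-0.60, adjusted p = 0.00721), with -0.38 (adjusted p = 0.0578) in NTC livers and a difference between the responses of -0.22 (adjusted p = 0.802).

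Of 19 genes of IL-1 receptor signalling, 8 rose and 3 fell in NTC livers and 10 rose and 1 fell in sgBap1 livers (median 0.15 and 0.22). The share called was 57.9% in each genotype, close to the 53.8% and 56.7% of all genes tested. Irak3, a kinase-dead inhibitor of the pathway, rose by 2.13 on the log2 scale in NTC livers and 1.17 in sgBap1 livers. The NF-kappaB subunits Relb (1.66 and 1.54) and Nfkb2 (1.17 and 1.21) rose in both. The adaptor Myd88 rose by 0.69 and 0.65, and Chuk, the kinase IKKα, fell by 0.63 and 0.93 on the log2 scale.

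Of 17 genes of the inflammasome and of cytokine processing 15 were tested. In NTC livers 13 rose and 1 fell, with a median of 1.56, and in sgBap1 livers 8 rose and 2 fell, with a median of 0.40. These were 93.3% and 66.7% of the list, beside 53.8% and 56.7% of all genes tested. The neutrophil protease Prtn3 rose by 4.22 and 4.51 on the log2 scale in NTC and sgBap1 livers, Nlrp1a by 3.68 and 2.34, and the inflammasome adaptor Pycard by 2.58 and 1.89. Nlrp1a rose from near the limit of detection, with at most 3 counts in an NTC-Veh and 6 in an sgBap1-Veh liver. Mefv, the pyrin gene, rose by 2.44 and 1.48, and Nlrp6 had log2 fold changes of -2.33 and -2.56. Between genotypes with vehicle 0 of the 15 were called, while 10 had an unadjusted p under 0.05 (12.6% of all genes tested) and the median was 0.67. For the interaction 0 were called in edgeR, 9 had an unadjusted p under 0.05 (10.6% of all genes) and the median was -0.77. With vehicle 12 of the 15 genes had a log2 fold change above 0. Mean levels of Nlrp6 (284 CPM in NTC, 253 in sgBap1) and Prtn3 (0.752 and 0.411) were lower in sgBap1-Veh livers. In both sgBap1-Veh livers the summed Kupffer cell, monocyte and macrophage, T and NK cell, and dendritic cell markers exceeded those of both NTC-Veh livers. The part of these cells in the list was not tested.

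Of 18 genes known to be induced by IL-1, 15 were tested, and 12 rose with CCl4 in each genotype, with 1 lower in NTC livers, while 27.5% and 29.0% of all genes tested rose in NTC and sgBap1 livers and 26.3% and 27.7% fell. The median log2 fold change of the list was 1.61 and 1.34. The chemokine Ccl2 went from 0.999 ± 0.628 CPM (SD, n = 2) to 26.2 ± 8.50 (SD, n = 3) in NTC livers and from 2.38 ± 0.777 (SD, n = 2) to 26.6 ± 8.93 (SD, n = 3) in sgBap1 livers (log2 fold changes 4.70 and 3.46). Cxcl2 rose by 4.11 and 3.32 on the log2 scale and the siderophore-binding protein Lcn2 by 3.37 and 2.99. Cxcl2 had at most 4 counts in an NTC-Veh and 8 in an sgBap1-Veh liver. Ptgs2, the inducible cyclooxygenase, was at 0 counts in both NTC-Veh livers and at most 19 counts in an NTC-CCl4 liver. Vcam1, an adhesion molecule, was the one gene of this list called between genotypes. With vehicle it was 11.0 ± 0.721 CPM (SD, n = 2) in NTC and 23.2 ± 2.76 (SD, n = 2) in sgBap1 livers (log2 fold change 1.07, SE 0.17, adjusted p = 0.0382).

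Of 11 genes responsive to IL-18 or IL-33, 6 were tested, and 3 rose and 1 fell in NTC livers while 2 rose and 1 fell in sgBap1 livers, beside 53.8% and 56.7% of all genes called in either direction. Chil3, a chitinase-like macrophage gene, rose by 5.63 and 5.19 on the log2 scale. Areg, which encodes the growth factor amphiregulin, was at 1 count or less in every vehicle liver and reached 33 counts in a CCl4 liver of each genotype. Arg1, a urea cycle enzyme of hepatocytes as well as a macrophage gene, fell by 0.87 and 0.82 on the log2 scale. Ccl24, an eosinophil chemokine, rose by 0.82 in NTC livers, and its log2 fold change in sgBap1 livers was 0.40 (adjusted p = 0.249). The difference between the 2 responses did not pass (-0.42, adjusted p = 0.783).

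**Figure D5:**
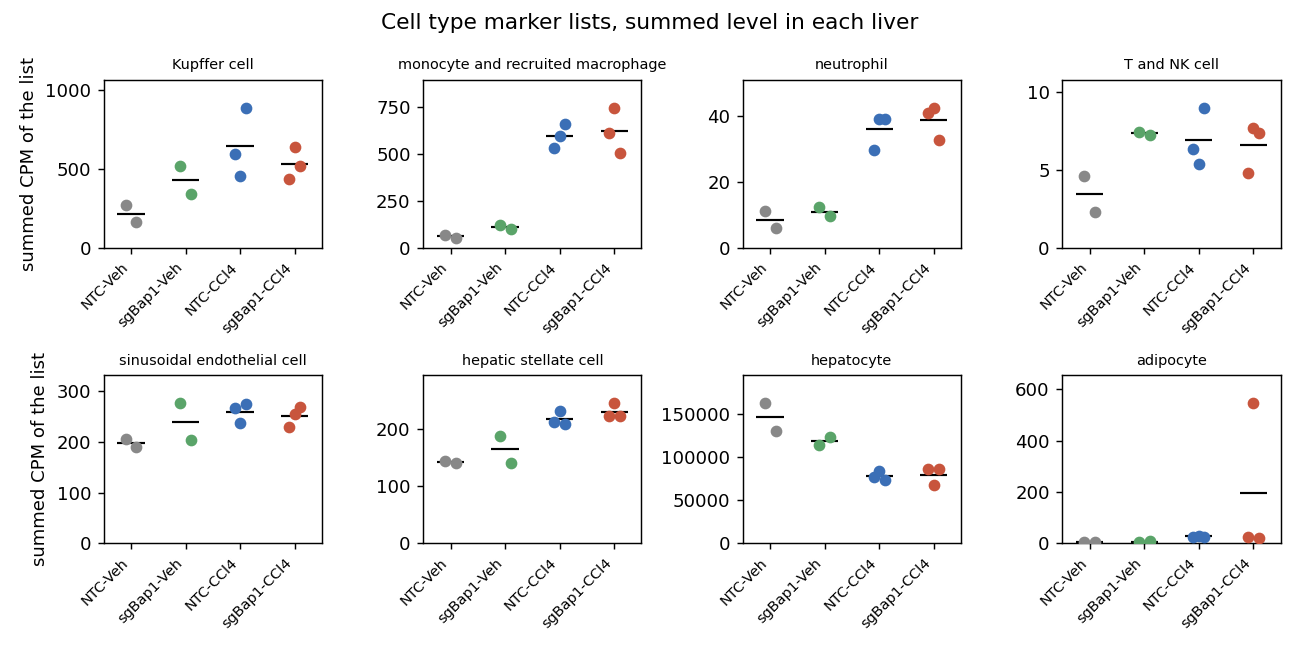
Summed CPM of 8 cell type marker lists in each liver, on linear axes that start at 0; points are livers and bars group means. Monocyte and neutrophil markers were higher and hepatocyte markers lower in all CCl4 livers than in all vehicle livers, Kupffer cell and T and NK cell markers were lowest in the 2 NTC-Veh livers, and sgBap1-CCl4 replicate 2 stands alone at 545 CPM of adipocyte markers.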

How the data were processed

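Poly(A) RNA of right liver lobes was sequenced by the authors as paired 50-base reads from stranded libraries, aligned with STAR 2.7.6a to GRCm38 and quantified with Salmon 1.4.0 on GENCODE gene models. The deposited table holds the authors' estimated counts per gene, not normalized, for 55291 genes in 10 livers; 9.22% of values were not whole and were rounded. All 10 columns were matched to a liver by group and replicate number.

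Counts were analysed with edgeR 4.0.16 in R 4.3.3. Genes were kept by filterByExpr, libraries scaled by TMM, and a model of the 4 groups fitted with the robust two-sided quasi-likelihood test, with Benjamini-Hochberg adjustment over 17015 genes and a threshold of 0.05. Standard errors came from the fold change and its F statistic, and 95% intervals from the t distribution. DESeq2 1.42.0, limma-voom (limma 3.58.1), other scalings and filters, a replicate block and leaving out each liver were alternatives. The procedure was tested on simulated data with 200 changed genes. The labels do not name the mouse behind each liver, so p-values measure the spread between these samples, which may be technical. Replicates differed by more than sampling noise (mean chi-square 15.5 to 90.1 per gene).

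All members were named. From each pathway list, genes past the threshold with the largest fold changes were named, up to 4 per comparison if their mean count was 10 or more, and for each member the 3 genes (mean of at least 100 counts) with the highest Pearson r. A gene these rules name, and a marker list that holds it, are not reported here. The members and lists were chosen with earlier results of these data known. Gene positions are from GENCODE on GRCm38, an older release than the authors used. Protein sequences were not used here.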

Additional observations from a re-analysis of the deposited data

How the results depend on the processing

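DESeq2 size factors changed no direction or call of the 50 fold changes of members, nor did a mean of at least 10 counts for the 45 it gave (Il1rl1 was left out) or the fits on 2 groups for the 36 they gave, which hold no interaction, no Il1r2 with vehicle and Il1rl1 for CCl4 in sgBap1 livers alone. DESeq2's Wald test called 2 members, Il1r1 and Il18bp, for sgBap1 with vehicle and 2 for the interaction, against 0 in edgeR. Library size scaling moved the median of all genes to 0.50 (NTC) and 0.52 (sgBap1) with CCl4, added Il1r1 in NTC and Il1a and Il1rl1 in sgBap1 livers, and turned Il18bp in sgBap1 livers to 0.36. Without a filter Il1b in NTC was lost (adjusted p = 0.061). With limma-voom Il1r2 (0.65) and Il1rl1 (-0.05) turned for sgBap1 with vehicle, and Il1r2 for the interaction (-0.16). The cause was not tested. Over all genes, sgBap1 with vehicle called 89 genes, and 562 with DESeq2, 177 without a filter, 47 with library size scaling, 25 with limma-voom and 35 in the fit on 2 groups. With CCl4 43 became 509 with DESeq2 and 113 without a filter, and for the interaction 0 became 424, 103 and, with library size scaling, 8.

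Leaving out each liver in turn gave 6 to 8 members called for CCl4 in NTC and 6 to 7 in sgBap1 livers (Il1rl1 was added without sgBap1-Veh replicate 1), and 0 to 0 for the other 3 comparisons. The ratios ranged from 2.57 to 3.12 (Il1rn), 1.75 to 2.13 (Il18bp) and 2.19 to 3.82 (Il1r2), with p = 0.0167 to 0.025 by exact permutation. Directions that turned, none of a called result, had these ranges: with CCl4 in sgBap1 livers, Il1a -0.10 to 0.47; for sgBap1 with vehicle, Il1rn -0.24 to 0.71, Il1r2 -1.34 to 4.55, Il1rap -0.43 to 0.00 and Il1rl1 -3.98 to 1.33; for sgBap1 with CCl4, Il1b -0.35 to 0.09 and Il1rap -0.27 to 0.10; for the interaction, Il1rn -0.12 to 0.83, Il1r2 -4.11 to 1.79, Il1rap -0.10 to 0.33 and Il1rl1 -0.26 to 5.04.

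Same-numbered livers did not deviate together over the genes tested (r from -0.15 to 0.10). In groups of 2 livers the deviations mirror each other, so this cannot exclude a pairing by number. The replicate block left the members called at 8, 6, 0, 0 and 0, and over all genes 89 became 1 and 43 became 3. As same-numbered differences in the replicate block, the ratios were 2.93 (Il1rn), 1.95 (Il18bp) and 3.14 (Il1r2), each with an exact permutation p = 0.125, the smallest that 4 pairs allow. Adding 2 to each count gave 2.14 for the Il1r2 ratio. Counts limit Il1r2 and Il1rl1, which passed the filter only through CCl4 livers. The p-values of the Il1r2 ratio are therefore no independent support for its rise.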
